A study of Mesocricetus auratus with 36 samples.

Results

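Torpid golden hamsters were compared with hamsters in the refractory state, in which hibernation had ended on its own while the animals were still in the cold and on short days. The comparison uses 12 of the 36 RNA-seq libraries of the series, chosen by their titles: 6 torpid and 6 refractory animals. The study sampled male golden hamsters (Mesocricetus auratus) through the hibernation season and collected the ependymal layer of the hypothalamus by laser capture microdissection. The 6 torpid animals were 6 months old, had spent 8 to 12 weeks at 10 h of light and 8 °C, had passed through 3 cycles of torpor and arousal, and were taken 13 h into a bout. The 6 interbout animals, set beside them below, had the same age and housing and were taken 23 h into the warm interval between bouts. The 6 refractory animals were 8 months old, had ended hibernation after about 20 weeks at 10 h of light and 8 °C, had since shown no torpor bout for at least 2 weeks and are described in the labels as reproductive. All of them carried an implanted temperature logger, were fed freely and were anaesthetised with isoflurane before they were killed. Body temperature, age and time on short days differ together between torpid and refractory animals and cannot be told apart, and the labels do not state the time of day. The reproductive condition given for refractory animals cannot be told apart from these factors either.

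Tanycytes are the elongated glial cells that line the bottom of the third ventricle. They touch the cerebrospinal fluid with one end and blood vessels or neurons with the other, convert thyroid hormone, handle retinoids and take up glucose and lactate, and in seasonal mammals they pass the signal of day length on to the hypothalamus. Torpor is a controlled and reversible drop of metabolism and body temperature, broken by spontaneous arousals, and the refractory state is the spontaneous return to a permanently warm body although the winter conditions persist.

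One refractory library stands apart from all others. Refractory 4 held 5.16 M counts (M, 1e6), of which 41.8% fell on genes of ribosomal RNA and 18.3% on those of mitochondria. The 6 torpid libraries held 19.13 to 26.46 M counts with 0.219 to 0.486% on ribosomal RNA genes, and the other 5 refractory libraries held 17.14 to 28.54 M counts with 0.348 to 0.669%. Values below are therefore given without refractory 4 (n = 6 torpid and n = 5 refractory). The counts over all genes are also given with it, but list counts and single values only where stated. A list given without a second count can still differ with refractory 4. In a principal component analysis of these 11 libraries the first component held 37.4% of the variance and separated the groups, with scores of -3.42 to 37.6 in torpid libraries and -37.3 to -8.25 in refractory libraries.

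Markers of tanycytes were present in the libraries. The 21 listed tanycyte markers that the annotation holds were all measurable. Their summed level was 2514 to 4459 normalised counts per 1e6 counts (CPM) in torpid libraries and 2443 to 4348 CPM in refractory libraries, overlapping widely (exact permutation test over libraries, two-sided, p = 0.682 adjusted over 14 summaries). The samples also held other cells, since markers of motile cilia of ordinary ependymal cells summed to 10220 to 13340 CPM in torpid libraries and 9742 to 14610 CPM in refractory libraries, and neuron markers to 684 to 1050 CPM in torpid libraries and 811 to 1203 CPM in refractory libraries. In such bulk samples fewer cells of a type and less RNA per cell cannot be told apart. Of the 21 tanycyte markers, Slit2, a secreted guidance protein, rose (log2 fold change 0.54 ± 0.13 SE, edgeR adjusted p = 0.0072) and Rax, a homeobox factor of tanycytes, fell (-0.92 ± 0.30 SE, edgeR adjusted p = 0.0441). The Rax call was lost with refractory 4, without refractory 2, 3 and 4, and without any 1 of refractory 2, 3, 5 and 6 and torpid 4, 5 and 6.

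Transcripts of the pituitary were present in some refractory libraries. Growth hormone (Gh1) stood at 0 to 8.00 CPM in torpid libraries, against 0.197, 88.7, 543.1, 0.266 and 3.70 CPM in refractory libraries 1, 2, 3, 5 and 6 and 22.3 CPM in refractory 4. The sum of 12 pituitary and pars tuberalis markers was 133 to 250.1 CPM in torpid libraries and 162 to 2007 CPM in refractory libraries (exact permutation test, two-sided, p = 0.0281, and 0.197 adjusted over 14 summaries). Refractory libraries 2, 3 and 4 carried Gh1 above 10 CPM, and a further set of fits, added after the data were seen, leaves them out and keeps refractory 1, 5 and 6. Refractory 6, kept by that rule, had a pituitary marker sum of 1524 CPM, of which Pomc made up 1395 CPM, against 352.8 CPM in refractory 2, 2007 CPM in refractory 3 and 394.7 CPM in refractory 4. That set of fits is therefore low in Gh1 but not free of transcripts on the pituitary list. It also keeps fewer refractory libraries, and why a call is lost in it was not tested. Markers of red blood cells summed to 2.71 to 6.19 CPM in torpid libraries, 3.04 to 39.1 CPM in interbout libraries and 6.77 to 29.5 CPM in refractory libraries, with no overlap between torpid and refractory libraries (exact permutation test, two-sided, p = 0.002165, the smallest that 6 against 5 libraries allow, and 0.0303 adjusted over 14 summaries). All 3 red cell markers were lower in the torpid mean, and Alas2, the enzyme that starts heme synthesis in red cell precursors, fell (edgeR adjusted p = 0.0122, and 0.124 without refractory 2, 3 and 4). The part of these admixtures in the results below was not tested beyond the fits that leave out libraries.

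**Figure D1:**
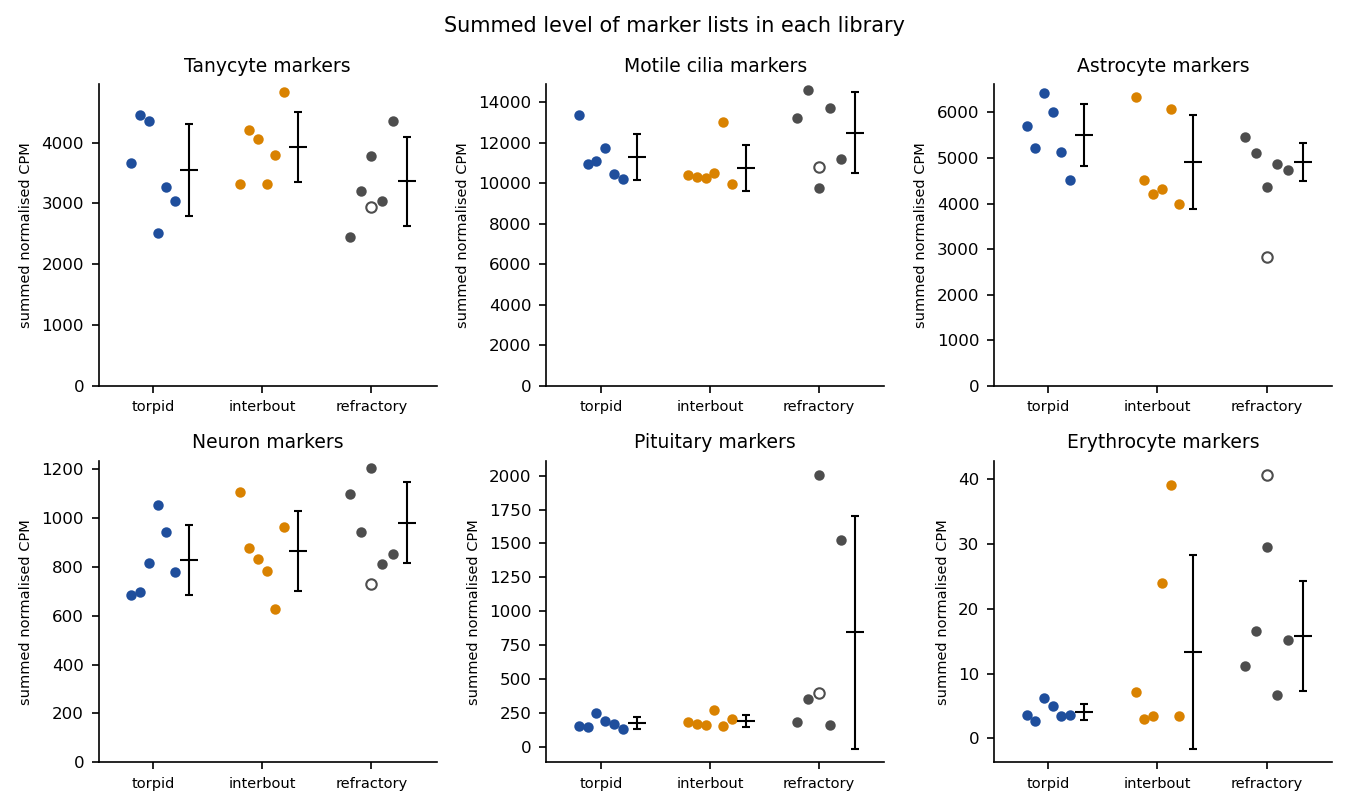
Summed normalised CPM (vertical axis) of 6 marker lists in each torpid, interbout and refractory library; each point is 1 library, the black bars are the mean ± SD (n = 6, 6 and 5) and the open circle is refractory 4. Tanycyte sums overlap (2514 to 4459 CPM torpid, 2443 to 4348 CPM refractory), while pituitary sums reach 2007 CPM in the refractory group and red cell sums are at most 6.19 CPM in torpid libraries.

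The torpid and refractory transcriptomes differed in 1918 of 17996 genes tested, which is 10.7% of them (edgeR quasi-likelihood test, Benjamini-Hochberg adjusted p below 0.05 over all genes tested, called passed from here on). Of these, 874 rose in torpid animals (4.86%) and 1044 fell (5.8%). With refractory 4, 2720 of 17926 genes passed (15.2%), 1095 rising (6.11%) and 1625 falling (9.07%), and 1517 of the 1918 genes passed again in the same direction. Without refractory 2, 3 and 4, 865 of 18533 genes passed (4.67%), 408 rising (2.2%) and 457 falling (2.47%), and 845 of the 1918 genes passed again in the same direction. The median log2 fold change of all genes tested was -0.01. Counts of gene lists below are to be read beside the 10.7% of all genes that passed. In 1412 genes (7.85%) the 6 torpid and 5 refractory libraries did not overlap at all, with torpid libraries higher in 623 (3.46%) and lower in 789 (4.38%).

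**Figure D2:**
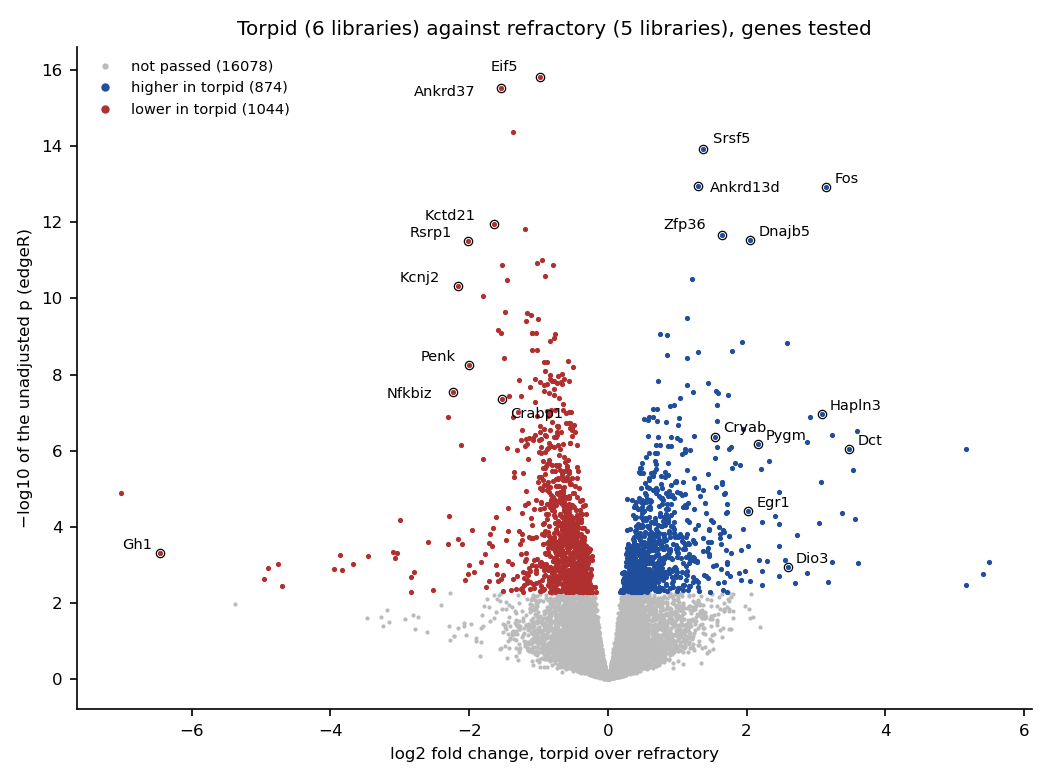
Each point is 1 of the 17996 genes tested, with the log2 fold change of torpid over refractory on the horizontal axis and the -log10 of the unadjusted edgeR p on the vertical axis; coloured points passed (874 higher and 1044 lower in torpid). Fos (3.14) and Dct (3.48) lie far to the right, Ankrd37 (-1.54) and Eif5 (-0.97) highest on the left.

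The genes that fell had a longer total of annotated exons than those that rose. The median exon length was 2614 bases for the 874 genes that rose and 3707 bases for the 1044 that fell, beside 2710 bases for the 16078 genes that did not pass. Long noncoding RNAs made up 10.3% of the genes that rose, 3.26% of those that fell and 13.6% of those that did not pass. The 3 sets also differed in level, with a median log2 CPM of 4.69, 4.11 and 3.75 in the same order. These are descriptions of the called genes, and genes are not independent replicates.

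Immediate early genes, which are switched on within minutes by stimuli and mostly encode short-lived transcription factors, had the highest share of rises among the gene lists. Of 35 measured, 11 rose and 3 fell, with a median log2 fold change of 0.25. With refractory 4 the counts were 12 and 2 with a median of -0.06, so the list's median changes sign with that library, and without refractory 2, 3 and 4 the counts were 11 and 1. Fos, a subunit of the AP-1 transcription factor, stood at 45.7 to 55.6 CPM in torpid libraries (median 47.6), against 5.15, 4.87, 6.53, 5.10 and 6.38 CPM in refractory libraries 1, 2, 3, 5 and 6. The torpid libraries lay in a narrow band far above every refractory library, refractory 4 (15.3 CPM) included, and the fitted difference was 8.84-fold (log2 fold change 3.14 ± 0.27 SE, edgeR adjusted p = 3.495e-10).

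Zfp36, which encodes tristetraprolin, a protein that marks short-lived messengers for decay, stood at 49.5 to 86.3 CPM in torpid libraries (median 54.5), against 19.6, 12.1, 23.3, 18.6 and 21.4 CPM in refractory libraries (log2 fold change 1.64 ± 0.16 SE, edgeR adjusted p = 4.378e-09). Every torpid library was above every refractory one, and torpid 1 was the highest. Egr1, a zinc finger factor of the same early wave, averaged 7.91 ± 5.21 CPM in torpid animals and 1.95 ± 0.834 CPM in refractory animals (SD, n = 6 and 5; log2 fold change 2.02 ± 0.43 SE, edgeR adjusted p = 0.00155). Its torpid values ran from 3.72 to 17.9 CPM and still did not overlap the refractory values of 0.943 to 2.97 CPM. Ccn1, a secreted matrix protein, was 2.22-fold higher (edgeR adjusted p = 0.000252), and Btg2, an antiproliferative regulator of messenger deadenylation, 1.82-fold higher (edgeR adjusted p = 4.906e-07). Of 16 MAP kinase phosphatases and Sprouty-type inhibitors, which switch off the pathway that induces these genes, 2 rose and 1 fell. Dusp1 averaged 161 ± 23.1 CPM in torpid animals and 88.1 ± 19.7 CPM in refractory animals (log2 fold change 0.87 ± 0.17 SE, edgeR adjusted p = 0.000804).

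Genes of RNA processing moved in both directions, with some of the smallest p values of the comparison. Of 65 splicing factor genes, 7 rose and 3 fell, and their median log2 fold change was 0.06. The counts were 10 and 2 with refractory 4 and 5 and 2 without refractory 2, 3 and 4. Srsf5, a serine and arginine rich splicing factor, stood at 243 to 344 CPM in torpid libraries (median 289), against 122, 133, 93.6, 116 and 101 CPM in refractory libraries (log2 fold change 1.37 ± 0.11 SE, edgeR adjusted p = 5.231e-11). The groups lay far apart, and refractory 4, at 106 CPM, fell among the other refractory libraries. Srsf6, of the same family, averaged 108 ± 13.0 CPM in torpid animals and 65.6 ± 5.75 CPM in refractory animals (edgeR adjusted p = 1.564e-05), and the RNA helicase Ddx5 averaged 1368 ± 259 CPM in torpid animals and 747 ± 125 CPM in refractory animals (edgeR adjusted p = 0.000302). Rsrp1, an arginine and serine rich protein, went the other way at 14.4 to 21.3 CPM in torpid libraries (median 15.4), against 46.2, 68.0, 84.9, 59.5 and 81.6 CPM in refractory libraries (log2 fold change -2.02 ± 0.19 SE, edgeR adjusted p = 5.011e-09). Its highest torpid library lay far below its lowest refractory library.

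Of 40 translation initiation genes 5% passed, and of 39 genes of messenger decay and translation repression 17.95%, beside 10.7% of all genes tested. Eif5, the factor that triggers GTP hydrolysis when the ribosome finds its start codon, stood at 181 to 219 CPM in torpid libraries (median 199), against 396, 412, 356, 404 and 393 CPM in refractory libraries. The groups were tight and well separated (log2 fold change -0.97 ± 0.07 SE, edgeR adjusted p = 2.578e-12), while refractory 4, at 196 CPM, lay inside the torpid range. Among the translation initiation genes only Eif5 fell and only Eif2s3, a subunit of the factor that delivers the initiator tRNA, rose (log2 fold change 0.23 ± 0.07 SE, edgeR adjusted p = 0.0214). The Eif2s3 call was lost without refractory 1, refractory 6, torpid 5 or torpid 6 in turn, and without refractory 2, 3 and 4. The ribosomal protein list matched 92 genes by name, of which 10 encode S6 kinases. Of the other 82 genes 0 passed in edgeR, where 1 had an unadjusted p below 0.05, and 1 rose with DESeq2 and 1 with limma voom. The 4 falls in the list were the kinases Rps6ka2, Rps6ka3, Rps6ka5 and Rps6kb1, which act downstream of growth signals; without refractory 2, 3 and 4, Rps6ka3, Rps6ka5 and Rps6kb1 did not pass. Of the genes of messenger decay and translation repression 2 rose and 5 fell, beside 2 and 9 with refractory 4. Among those that fell was the decapping enzyme Dcp2, at 10.6 ± 1.36 CPM in torpid animals and 21.8 ± 2.79 CPM in refractory animals (log2 fold change -1.04 ± 0.12 SE, edgeR adjusted p = 4.789e-07).

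Chaperones rose more often than they fell. Of 37 heat shock and chaperone genes 7 rose and 1 fell, beside 9 and 0 with refractory 4 and 5 and 0 without refractory 2, 3 and 4. Dnajb5, a co-chaperone of the Hsp40 family, stood at 25.2 to 60.8 CPM in torpid libraries (median 37.8), against 7.86, 9.03, 8.22, 8.45 and 13.7 CPM in refractory libraries (log2 fold change 2.05 ± 0.20 SE, edgeR adjusted p = 5.011e-09). Every torpid library was above every refractory one, and refractory 4 was the lowest at 2.44 CPM. Cryab, a small heat shock protein of astroglia, lens and muscle, stood at 514 to 1652 CPM in torpid libraries (median 1134), against 301.5, 424.5, 314, 278 and 587 CPM in refractory libraries (log2 fold change 1.54 ± 0.25 SE, edgeR adjusted p = 5.259e-05). The ranges overlapped slightly, since the lowest torpid library lay below refractory 6. Hspb1, another small heat shock protein, was 3.44-fold higher (edgeR adjusted p = 0.000221), whereas the constitutive chaperone Hspa8 had a log2 fold change of 0.01 ± 0.11 SE and did not pass. Of 27 genes of endoplasmic reticulum stress 4 rose and 1 fell, led by Ppp1r15a, the subunit that directs a phosphatase to the initiation factor eIF2, at 63.6 ± 3.99 CPM in torpid animals and 38.5 ± 2.30 CPM in refractory animals (log2 fold change 0.72 ± 0.10 SE, edgeR adjusted p = 4.254e-06).

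Of 14 cold-linked RNA-binding and splicing kinase genes 3 rose and 0 fell. Rbm3, a cold-inducible RNA-binding protein, stood at 271 to 383 CPM in torpid libraries (median 312.5), against 278, 204, 221, 223 and 224 CPM in refractory libraries (log2 fold change 0.49 ± 0.13 SE, edgeR adjusted p = 0.00991). Refractory 1 overlapped the torpid range, and the gene did not pass without refractory 2, 3 and 4 (edgeR adjusted p = 0.113). Clk4, a kinase that phosphorylates splicing factors of the SR family, averaged 50.3 ± 5.69 CPM in torpid animals and 34.7 ± 3.77 CPM in refractory animals (edgeR adjusted p = 0.0126). The third, Tra2a, a splicing regulator, had a log2 fold change of 0.37 ± 0.10 SE (edgeR adjusted p = 0.0174) and did not pass with refractory 4, without refractory 2, 3 and 4, or without refractory 2 or torpid 6 alone.

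**Figure D3:**
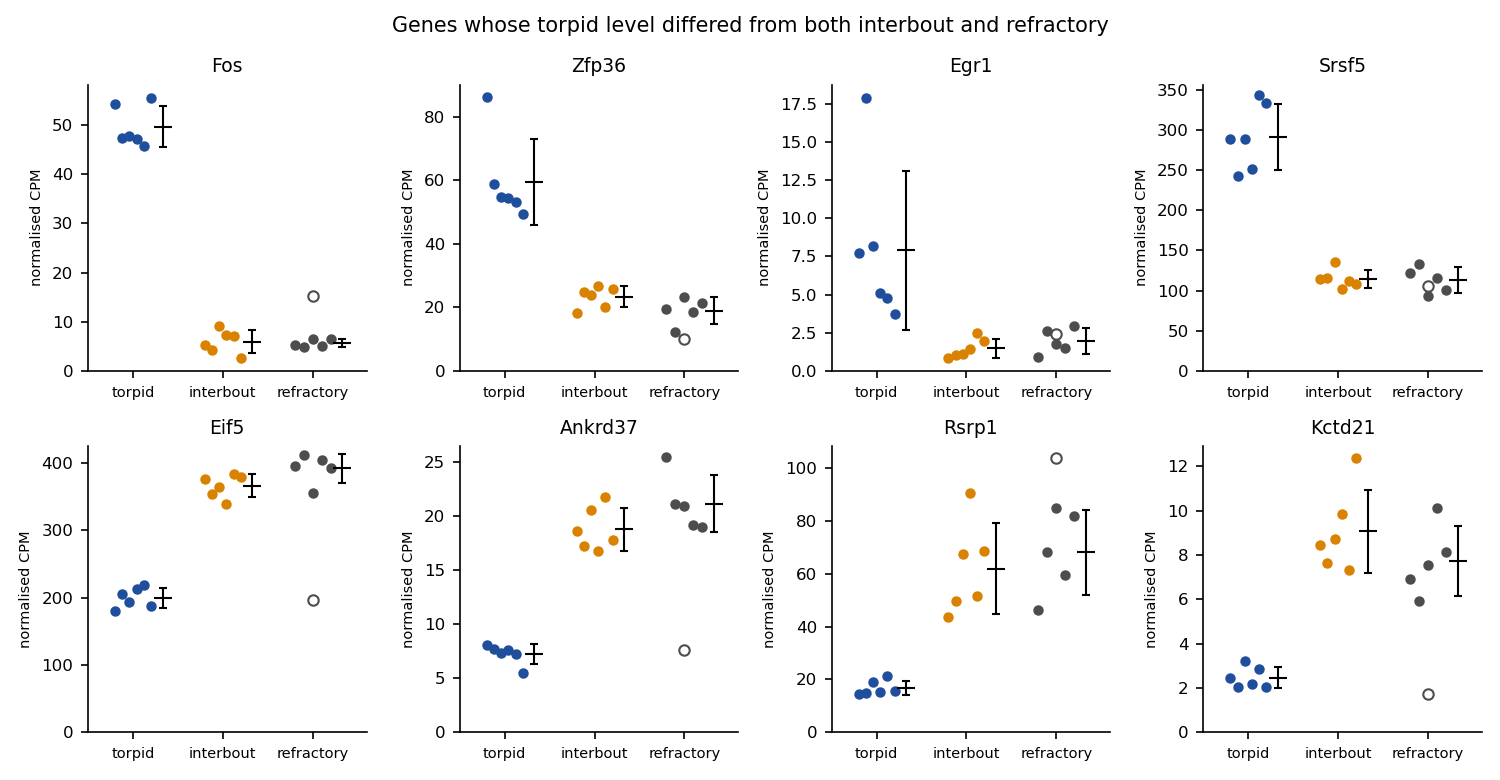
Normalised CPM (vertical axis) of 8 genes in each torpid, interbout and refractory library; points are libraries, black bars the mean ± SD (n = 6, 6 and 5) and the open circle refractory 4. Torpid libraries do not overlap the interbout libraries or the other 5 refractory libraries in the 8 panels, as for Fos (45.7 to 55.6 CPM torpid, 2.63 to 9.21 CPM interbout, 4.87 to 6.53 CPM refractory).

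Clock genes, which form the transcriptional feedback loops of the daily rhythm, changed in both directions. Of 24 measured 4 rose and 2 fell, beside 5 and 3 with refractory 4 and 1 and 2 without refractory 2, 3 and 4. Cry1, a repressor of the loop, stood at 7.85 to 12.5 CPM in torpid libraries (median 9.91), against 18.6, 18.2, 18.4, 16.1 and 18.04 CPM in refractory libraries (log2 fold change -0.85 ± 0.14 SE, edgeR adjusted p = 6.944e-05). The groups did not overlap. Nr1d2, a nuclear receptor that represses Bmal1, fell by 0.92 ± 0.19 SE on the log2 scale (edgeR adjusted p = 0.00137).

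Per1, a repressor gene that also answers acute stimuli, had a log2 fold change of 0.77 ± 0.22 SE (edgeR adjusted p = 0.021), and Nr1d1, the partner of Nr1d2, one of 0.70 ± 0.21 SE (edgeR adjusted p = 0.0248). Neither passed without refractory 2, 3 and 4. The Per1 call was also lost without refractory 1, refractory 2, torpid 1 or torpid 6, and the Nr1d1 call without refractory 1, 2 or 5 or torpid 1 or 2. Per2 did not pass (22.6 ± 4.65 CPM in torpid animals, 20.5 ± 4.53 CPM in refractory animals).

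Genes of insulin and growth signalling had more falls than rises. Of 39 measured 2 rose and 9 fell, with a median log2 fold change of -0.13 beside -0.01 over all genes. The counts were 3 and 9 with refractory 4 and 2 and 4 without refractory 2, 3 and 4. Arrdc3, an arrestin-like adaptor that is a target of FoxO factors, stood at 31.7 to 43.3 CPM in torpid libraries (median 37.2), against 72.3, 85.8, 141, 110 and 131 CPM in refractory libraries (log2 fold change -1.54 ± 0.18 SE, edgeR adjusted p = 4.789e-07). The groups did not overlap, and refractory 4 lay between them at 53.3 CPM. Irs1, the docking protein of the insulin receptor, averaged 8.31 ± 1.52 CPM in torpid animals and 15.5 ± 2.38 CPM in refractory animals (edgeR adjusted p = 0.000228). The receptor itself, Insr, averaged 15.3 ± 0.941 CPM in torpid animals and 23.9 ± 3.37 CPM in refractory animals (edgeR adjusted p = 0.000789).

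Receptors and inflammatory regulators also had more falls than rises. Of 42 nutrient, taste and hormone receptor genes 2 rose and 6 fell. Fgfr2, a receptor for fibroblast growth factors, averaged 50.5 ± 6.11 CPM in torpid animals and 68.9 ± 4.00 CPM in refractory animals (log2 fold change -0.45 ± 0.08 SE, edgeR adjusted p = 0.000219), and it did not pass with refractory 4, which held 21.6 CPM. The receptors that rose, named after their values were seen, were Trpv2, an ion channel (log2 fold change 1.14 ± 0.33 SE, edgeR adjusted p = 0.0207), and Tas1r1, a subunit of the taste receptor for amino acids (1.15 ± 0.34 SE, edgeR adjusted p = 0.0249). Both calls were lost in 5 of 11 fits that left out 1 library, and neither gene passed without refractory 2, 3 and 4.

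Of 33 genes of inflammation and interferon 1 rose and 5 fell, with a median log2 fold change of -0.28. The median over 15 markers of microglia and macrophages, which also express many of these genes, was -0.32, with 2 of the 15 above 0, and their summed level was 266.9 to 422.0 CPM in torpid libraries and 362.4 to 557.2 CPM in refractory libraries (exact permutation test, two-sided, p = 0.1926, and 0.3853 adjusted over 14 summaries). Their part in the changes of this list was not tested. Nfkbiz, an inducible nuclear regulator of NF-kappaB, averaged 0.909 ± 0.331 CPM in torpid animals and 4.27 ± 0.948 CPM in refractory animals, 4.69-fold lower in torpor (log2 fold change -2.23 ± 0.31 SE, edgeR adjusted p = 6.792e-06). The NF-kappaB subunit gene Nfkb1 averaged 6.23 ± 1.21 CPM in torpid animals and 10.9 ± 1.70 CPM in refractory animals (edgeR adjusted p = 0.000252), and Nfkb2 fell by 0.65 ± 0.13 SE on the log2 scale (edgeR adjusted p = 0.000569). Nfkbia, the inhibitor that holds NF-kappaB in the cytoplasm, was 1.37-fold higher (edgeR adjusted p = 0.015), a call that was lost without refractory 2 and without refractory 2, 3 and 4. Among 27 glucocorticoid and stress response genes, with which Nfkbia is also listed, 5 rose and 1 fell, and 1 rose and 0 fell without refractory 2, 3 and 4. Of 31 genes of CREB signalling 3 rose and 1 fell, the fall being Rgs2, a brake on G protein signalling, at 25.9 ± 6.40 CPM in torpid animals and 57.2 ± 12.8 CPM in refractory animals (edgeR adjusted p = 5.578e-05).

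A minority of the genes of fuel use changed. Of 25 glycogen genes 4 rose and 0 fell. Pygm, the muscle-type glycogen phosphorylase that frees glucose units from glycogen and in brain is found in astroglia, stood at 67.3 to 249 CPM in torpid libraries (median 102), against 14.6, 20.4, 34.6, 29.2 and 38.9 CPM in refractory libraries. All torpid libraries were above all refractory libraries, with torpid 6 the highest (log2 fold change 2.16 ± 0.35 SE, edgeR adjusted p = 7.209e-05). The kinase that activates phosphorylase was also higher in subunits Phkg2 (92.4 ± 8.72 CPM in torpid animals, 67.5 ± 4.74 CPM in refractory animals; edgeR adjusted p = 0.000266) and Phka1 (14.4 ± 2.28 CPM in torpid animals, 8.35 ± 0.920 CPM in refractory animals; edgeR adjusted p = 0.00095). Pygl, the liver-type phosphorylase, was 1.41-fold higher (edgeR adjusted p = 0.00814) and did not pass without refractory 2, 3 and 4 (edgeR adjusted p = 0.05001).

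Of 40 genes of fatty acid oxidation and ketone metabolism 4 rose and 4 fell, beside 3 and 0 without refractory 2, 3 and 4. The 4 that rose were Cpt1a, Cpt1b and Cpt1c, of the carnitine palmitoyltransferase family, and the carnitine carrier Slc25a20. Cpt1b stood at 11.7 to 31.4 CPM in torpid libraries (median 19.2), against 3.03, 5.86, 7.42, 4.22 and 11.5 CPM in refractory libraries, without overlap (log2 fold change 1.67 ± 0.33 SE, edgeR adjusted p = 0.000734). Cpt1c averaged 44.4 ± 5.48 CPM in torpid animals and 28.2 ± 7.86 CPM in refractory animals (edgeR adjusted p = 0.00488), and Slc25a20 63.6 ± 4.01 CPM in torpid animals and 46.1 ± 4.16 CPM in refractory animals (edgeR adjusted p = 0.00565). Cpt1a, the liver-type transferase, had a log2 fold change of 0.50 ± 0.14 SE (edgeR adjusted p = 0.0188) and lost its call without refractory 1, refractory 2, torpid 5 or torpid 6, and without refractory 2, 3 and 4. Pdk4, the kinase that closes the entry of glucose carbon into mitochondria, did not pass (5.76 ± 1.45 CPM in torpid animals, 4.99 ± 1.67 CPM in refractory animals).

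Of 28 glycolysis genes 3 rose (Eno2, Hk2 and Pfkm) and 0 fell, each losing its call in at least 6 of 11 fits that left out 1 library. The share that passed was 10.71%, beside 10.7% of all genes tested, and Eno2 is also on the neuron marker list. Of 23 genes of glucose, lactate and ketone transport 3 rose and 0 fell, led by the insulin-responsive glucose transporter Slc2a4 at 23.9 ± 4.90 CPM in torpid animals and 14.4 ± 4.73 CPM in refractory animals (edgeR adjusted p = 0.00597). The glucose transporter Slc2a1 and the monocarboxylate transporter Slc16a1 did not pass. Of 34 genes of lipid uptake and storage 2 rose and 1 fell (8.82% passed). Angptl4, an inhibitor of lipoprotein lipase, averaged 17.04 ± 6.09 CPM in torpid animals and 5.71 ± 1.33 CPM in refractory animals (log2 fold change 1.58 ± 0.26 SE, edgeR adjusted p = 8.194e-05). Of 33 genes of sterol and fatty acid synthesis 3 rose and 2 fell (15.15% passed), beside 6 and 1 with refractory 4. Among them the cholesterol carrier Stard4 fell by 0.91 ± 0.13 SE on the log2 scale (edgeR adjusted p = 4.801e-06).

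Of 57 nuclear genes of oxidative phosphorylation 0 passed in edgeR, where 4 had an unadjusted p below 0.05, and 0 passed with DESeq2, while 4 rose with limma voom and 1 rose in edgeR with refractory 4. Of 11 mitochondrially encoded genes 0 passed in edgeR, DESeq2 or limma voom, and 0, 0 and 3 of them had an unadjusted p below 0.05 in that order. Their median log2 fold change was -0.21, and it was -1.50 with 5 falls when refractory 4, with 18.3% of its counts on mitochondrial genes, was included.

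The retinoid and thyroid hormone genes for which tanycytes are known changed one by one. Crabp1, which binds retinoic acid inside cells, stood at 7.29 to 9.45 CPM in torpid libraries (median 8.07), against 20.5, 20.99, 34.7, 22.9 and 19.9 CPM in refractory libraries (log2 fold change -1.52 ± 0.22 SE, edgeR adjusted p = 9.443e-06). The torpid libraries were tightly grouped below all 5 refractory libraries, whereas refractory 4, at 7.66 CPM, lay with the torpid ones. Rdh10, which makes retinal on the way to retinoic acid, averaged 13.6 ± 3.28 CPM in torpid animals and 26.9 ± 7.88 CPM in refractory animals (log2 fold change -0.98 ± 0.21 SE, edgeR adjusted p = 0.00143). Lrat, which stores retinol as an ester, stood at 10.3 to 23.8 CPM in torpid libraries (median 16.6), against 6.96, 4.40, 4.26, 3.84 and 6.24 CPM in refractory libraries (log2 fold change 1.74 ± 0.41 SE, edgeR adjusted p = 0.00486). Its groups did not overlap, although the gene missed the threshold without refractory 2, 3 and 4 (edgeR adjusted p = 0.0644), and its exons overlap those of the neighbouring gene Fgg. Of all 16 retinoid genes 1 rose and 2 fell. The retinol receptor Stra6 ranged from 22.8 to 252 CPM in torpid libraries and from 88.6 to 250.9 CPM in refractory libraries and did not pass.

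Of 18 thyroid hormone genes 2 rose and 1 fell. Dio3, the enzyme that inactivates thyroid hormone, stood at 4.18 to 118.5 CPM in torpid libraries (median 12.1), against 1.69, 9.03, 6.49, 4.91 and 8.69 CPM in refractory libraries. Torpid 5 (69.2 CPM) and torpid 6 (118.5 CPM) were far above the rest, while torpid 1, 2 and 3 lay within the refractory range. The fitted log2 fold change was 2.59 ± 0.72 SE (edgeR adjusted p = 0.0172), and the call was lost without torpid 6, without refractory 1, and without refractory 2, 3 and 4. Dio2, which makes the active hormone, had 7.29 ± 3.62 CPM in torpid animals, 17.7 ± 11.3 CPM in interbout animals and 4.73 ± 1.90 CPM in refractory animals and did not pass between torpid and refractory animals (log2 fold change 0.62 ± 0.43 SE, edgeR adjusted p = 0.407). The receptor Thrb had a log2 fold change of 0.89 ± 0.26 SE (edgeR adjusted p = 0.0226) and lost its call without refractory 1, refractory 5, torpid 5 or torpid 6. Hr, a corepressor of thyroid hormone receptors, averaged 19.9 ± 5.75 CPM in torpid animals and 32.3 ± 7.32 CPM in refractory animals (edgeR adjusted p = 0.00838) and did not pass without refractory 2, 3 and 4. The thyrotropin receptor Tshr, through which the pars tuberalis acts on tanycytes, did not pass.

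Neuropeptide genes had more falls than rises. Of 20 measured 1 rose and 5 fell, with a median log2 fold change of -0.43, and 0 rose and 3 fell without refractory 2, 3 and 4. Penk, the precursor of the enkephalins, stood at 2.03 to 5.47 CPM in torpid libraries (median 3.52), against 12.5, 14.1, 20.7, 8.75 and 15.4 CPM in refractory libraries, without overlap (4.01-fold lower in torpid animals, edgeR adjusted p = 2.106e-06). Ghrh, the releasing hormone of growth hormone, averaged 1.99 ± 1.04 CPM in torpid animals and 8.67 ± 2.46 CPM in refractory animals (log2 fold change -2.12 ± 0.35 SE, edgeR adjusted p = 7.638e-05). Both passed without refractory 2, 3 and 4 (edgeR adjusted p = 0.000174 for Penk and 0.000834 for Ghrh).

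Kiss1, the precursor of the kisspeptins that drive the reproductive axis, averaged 1.61 ± 0.461 CPM in torpid animals and 4.96 ± 2.96 CPM in refractory animals (log2 fold change -1.61 ± 0.35 SE, edgeR adjusted p = 0.00202), with refractory 3 highest at 10.1 CPM. It did not pass without refractory 2, 3 and 4 (edgeR adjusted p = 0.0812). Pomc, made both in arcuate neurons and in the pituitary, stood at 50.5 to 148 CPM in torpid libraries (median 69.1), against 77.04, 126, 1086, 67.2 and 1395 CPM in refractory libraries, so that its fitted difference (log2 fold change -2.79 ± 0.80 SE, edgeR adjusted p = 0.022) rests on refractory 3 and 6. Its call was lost without either of them, without torpid 6, and without refractory 2, 3 and 4. Of the 12 pituitary markers 6 fell, and without refractory 2, 3 and 4 none of these 6 passed. Those libraries were left out for their Gh1 level, so the Gh1 result (edgeR adjusted p = 0.998) was fixed by that choice. For the others, the part played by the smaller number of refractory libraries was not tested. The median log2 fold change of 18 neuron markers was -0.43 as well, with 1 rise, 0 falls and 6 members at an unadjusted p below 0.05 in edgeR, 1 rise and 1 fall with DESeq2, and 1 rise and 5 falls with limma voom.

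Of 201 zinc finger genes with a Zfp or Znf name, most of them DNA-binding repressors of little studied function, 6 rose and 29 fell. Their median log2 fold change was -0.17, and the counts were 7 and 35 with refractory 4 and 2 and 15 without refractory 2, 3 and 4. Zfp90 averaged 5.96 ± 0.446 CPM in torpid animals and 12.7 ± 1.18 CPM in refractory animals (log2 fold change -1.09 ± 0.13 SE, edgeR adjusted p = 4.789e-07). Of 112 genes of the BTB domain families Kctd, Klhl and Btbd, many of them adaptors of ubiquitin ligases, 8 rose and 17 fell (3 and 10 without refractory 2, 3 and 4). Kctd21 stood at 2.04 to 3.23 CPM in torpid libraries (median 2.31), against 6.92, 5.92, 7.55, 10.1 and 8.13 CPM in refractory libraries, with refractory 4 at 1.74 CPM, below the torpid range (log2 fold change -1.64 ± 0.15 SE, edgeR adjusted p = 2.918e-09). Its exons share positions with another annotated gene, so unstranded counting cannot separate their reads.

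Of 66 histone and chromatin modifiers 0 rose and 8 fell, beside 1 and 17 with refractory 4 and 0 and 4 without refractory 2, 3 and 4. The share of this list that passed was 12.12%, beside 10.7% of all genes tested. Kdm7a, a histone demethylase, averaged 4.00 ± 0.681 CPM in torpid animals and 9.81 ± 1.74 CPM in refractory animals (log2 fold change -1.29 ± 0.19 SE, edgeR adjusted p = 1.775e-05), and Kmt5b, a methyltransferase of histone H4, fell by 0.65 ± 0.11 SE on the log2 scale (edgeR adjusted p = 7.209e-05). Of 64 potassium channel genes 3 rose and 9 fell, with a median log2 fold change of -0.30. The counts were 4 and 16 with refractory 4 and 0 and 3 without refractory 2, 3 and 4. Kcnj2, an inward rectifier that holds the resting potential, averaged 1.12 ± 0.164 CPM in torpid animals and 5.04 ± 1.37 CPM in refractory animals (log2 fold change -2.16 ± 0.23 SE, edgeR adjusted p = 4.561e-08).

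Ankrd37, a gene listed with the hypoxia response and induced by low oxygen in mammals, shared with Eif5 the smallest adjusted p of the comparison. It stood at 5.45 to 8.04 CPM in torpid libraries (median 7.50), against 25.5, 21.1, 20.9, 19.2 and 18.9 CPM in refractory libraries (log2 fold change -1.54 ± 0.11 SE, edgeR adjusted p = 2.578e-12). Refractory 4, at 7.66 CPM, lay inside the torpid range, as it did for Eif5. Another gene's exons overlap those of Ankrd37. Hif3a, an oxygen-regulated modulator of the same response, rose to 10.2 ± 2.49 CPM in torpid animals, against 4.10 ± 1.23 CPM in refractory animals (edgeR adjusted p = 0.000512), and did not pass with refractory 4, which held 34.5 CPM. These were the 2 of 21 hypoxia genes that passed.

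Of 39 genes of transforming growth factor, activin and BMP signalling 2 rose and 4 fell, of 48 Wnt and Notch genes 0 rose and 5 fell, and of 36 cell cycle genes 1 rose and 3 fell. The shares that passed were 15.38%, 10.42% and 11.11% in that order, beside 10.7% of all genes tested. Among 80 genes of extracellular matrix and integrins 3 rose and 0 fell, but 4 rose and 8 fell with refractory 4. Hapln3, which links hyaluronan to proteoglycans, stood at 3.29 to 13.4 CPM in torpid libraries (median 5.61), against 0.315, 0.762, 1.51, 0.343 and 1.12 CPM in refractory libraries, without overlap (log2 fold change 3.08 ± 0.46 SE, edgeR adjusted p = 1.913e-05).

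Of 34 antioxidant genes 3 rose and 1 fell, including Hmox1, the heme-degrading enzyme, at 71.4 ± 8.19 CPM in torpid animals and 44.8 ± 3.03 CPM in refractory animals (edgeR adjusted p = 0.000163). Of 49 ubiquitin and proteasome genes 3 rose and 1 fell, of 37 autophagy genes 1 rose and 3 fell, and of 45 amino acid transporters 0 rose and 2 fell. The shares that passed were 11.76% of antioxidant genes and 8.16%, 10.81% and 4.44% of these 3 lists in that order. Over all genes tested 10.7% passed. Of 26 junction genes 0 passed in edgeR, where 5 had an unadjusted p below 0.05, and 0 with DESeq2, beside 2 rises and 2 falls with limma voom and 1 rise and 1 fall in edgeR with refractory 4.

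**Figure D4:**
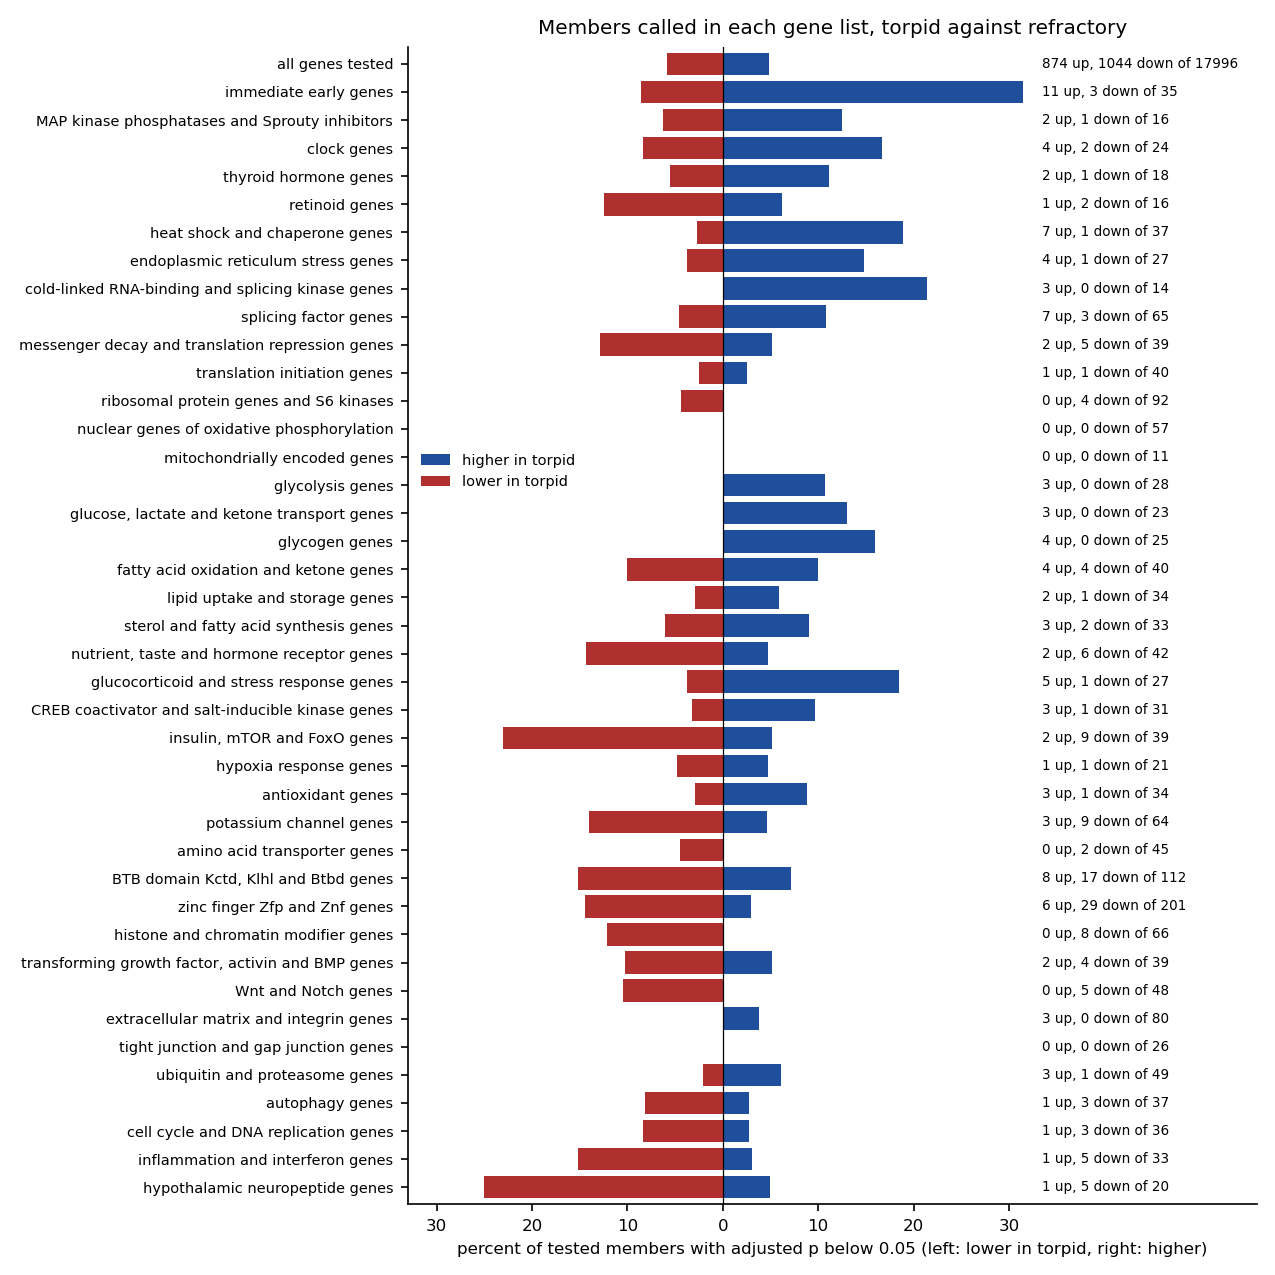
Percent of the tested members of each gene list (vertical axis) with an edgeR adjusted p below 0.05, drawn to the right for members higher in torpid and to the left for members lower in torpid, with the counts printed at the right. Immediate early genes (11 up, 3 down of 35) reach farthest right, and insulin signalling genes (2 up, 9 down of 39) are among the lists that reach far left.

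The interbout animals were set beside both groups to show where their levels lay. The 3 comparisons share libraries, so their results are not independent, and each gene's values are only given side by side. Between torpid and interbout animals 1322 of 17996 genes passed (7.35%), 400 higher (2.22%) and 922 lower (5.12%) in torpid animals. Between interbout and refractory animals 229 passed (1.27%), 155 higher (0.861%) and 74 lower (0.411%) in interbout animals. The last count was 628 with refractory 4 (3.5%), 47 without refractory 2, 3 and 4 (0.254%), and 58 to 344 when 1 library at a time was left out. Interbout 6, included in the interbout means and calls, held 14.11 M counts with 7.207% on ribosomal RNA and 14.3% on mitochondrial genes, against at most 0.5304% and 2.721% in the other interbout libraries. Without it 329 genes passed between interbout and refractory animals and 1139 between torpid and interbout animals.

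For one set of genes the torpid level stood apart from both other groups. Fos averaged 49.6 ± 4.17 CPM in torpid, 5.96 ± 2.38 CPM in interbout and 5.61 ± 0.786 CPM in refractory animals (edgeR adjusted p = 9.814e-11 for torpid against interbout and 0.881 for interbout against refractory). Eif5 averaged 199.6 ± 14.8 CPM in torpid, 366 ± 17.1 CPM in interbout and 392 ± 21.5 CPM in refractory animals (edgeR adjusted p = 1.45e-11 and 0.45 in the same order). Srsf5 averaged 291.5 ± 41.1 CPM in torpid, 114.5 ± 11.3 CPM in interbout and 113 ± 15.9 CPM in refractory animals, and Ankrd37 7.25 ± 0.921 CPM in torpid, 18.8 ± 1.99 CPM in interbout and 21.1 ± 2.62 CPM in refractory animals.

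Arrdc3 (37.1 ± 4.62 CPM in torpid, 125 ± 37.5 CPM in interbout, 108 ± 28.98 CPM in refractory animals), Cry1 (9.94 ± 1.84, 24.2 ± 6.80 and 17.9 ± 1.02 CPM in torpid, interbout and refractory animals) and Kctd21 (2.47 ± 0.478, 9.07 ± 1.86 and 7.73 ± 1.57 CPM) were also lowest in torpid animals, passed against interbout animals, and did not pass between interbout and refractory animals. By list, immediate early genes had 10 rises and 1 fall between torpid and interbout animals and 1 rise and 0 falls between interbout and refractory animals. Zinc finger genes had 4 rises and 36 falls between torpid and interbout animals and 0 and 1 between interbout and refractory animals. Chromatin modifiers had 0 and 17 between torpid and interbout animals and 1 and 0 between interbout and refractory animals. Over all genes tested 2.22% rose and 5.12% fell between torpid and interbout animals. The shares between interbout and refractory animals were 0.861% and 0.411%.

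For another set, torpid and interbout animals both differed from refractory animals. Pygm averaged 123.5 ± 69.8 CPM in torpid, 98.6 ± 32.4 CPM in interbout and 27.5 ± 9.98 CPM in refractory animals (edgeR adjusted p = 0.00564 for interbout against refractory and 0.615 for torpid against interbout). Crabp1 averaged 8.27 ± 0.805 CPM in torpid, 8.96 ± 1.97 CPM in interbout and 23.8 ± 6.21 CPM in refractory animals (edgeR adjusted p = 0.000822 and 0.812 in the same order), and Penk 3.56 ± 1.11 CPM in torpid, 5.29 ± 1.33 CPM in interbout and 14.3 ± 4.37 CPM in refractory animals (0.00346 and 0.19 by edgeR). Dct, dopachrome tautomerase of pigment cells, averaged 20.2 ± 24.3 CPM in torpid, 22.4 ± 9.78 CPM in interbout and 1.79 ± 0.6603 CPM in refractory animals (log2 fold change 3.48 ± 0.58 SE for torpid against refractory, edgeR adjusted p = 8.72e-05). Its torpid values spread from 1.94 CPM in torpid 6 to 67.6 CPM in torpid 2, and torpid 6 lay inside the refractory range.

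Cryab, Hapln3 and the interferon-inducible proteasome subunit Psmb8 likewise passed between interbout and refractory animals, in all 11 fits that left out 1 library, and had edgeR adjusted p of 0.632, 0.541 and 0.715 between torpid and interbout animals. The call between interbout and refractory animals was lost in 3 of the 11 fits for Cpt1b, 7 for Cpt1c, 7 for Slc25a20, 6 for Phkg2, 4 for Rdh10 and 7 for Lrat. A p that misses the threshold does not show that torpid and interbout levels were equal. Btg2 passed in all 3 comparisons, with 80.6 ± 13.3 CPM in torpid, 59.6 ± 5.58 CPM in interbout and 44.4 ± 4.94 CPM in refractory animals. The call between interbout and refractory animals was lost for Btg2 in 4 of the 11 leave-one-out fits (edgeR adjusted p = 0.1214 without refractory 1). Dio2 passed between interbout and refractory animals (edgeR adjusted p = 0.0254) and between torpid and interbout animals (edgeR adjusted p = 0.0437), highest in interbout animals in both cases. Those Dio2 calls were lost in 4 of 11 and in 7 of 12 leave-one-out fits, where the edgeR adjusted p reached 0.1015 and 0.1101.

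**Figure D5:**
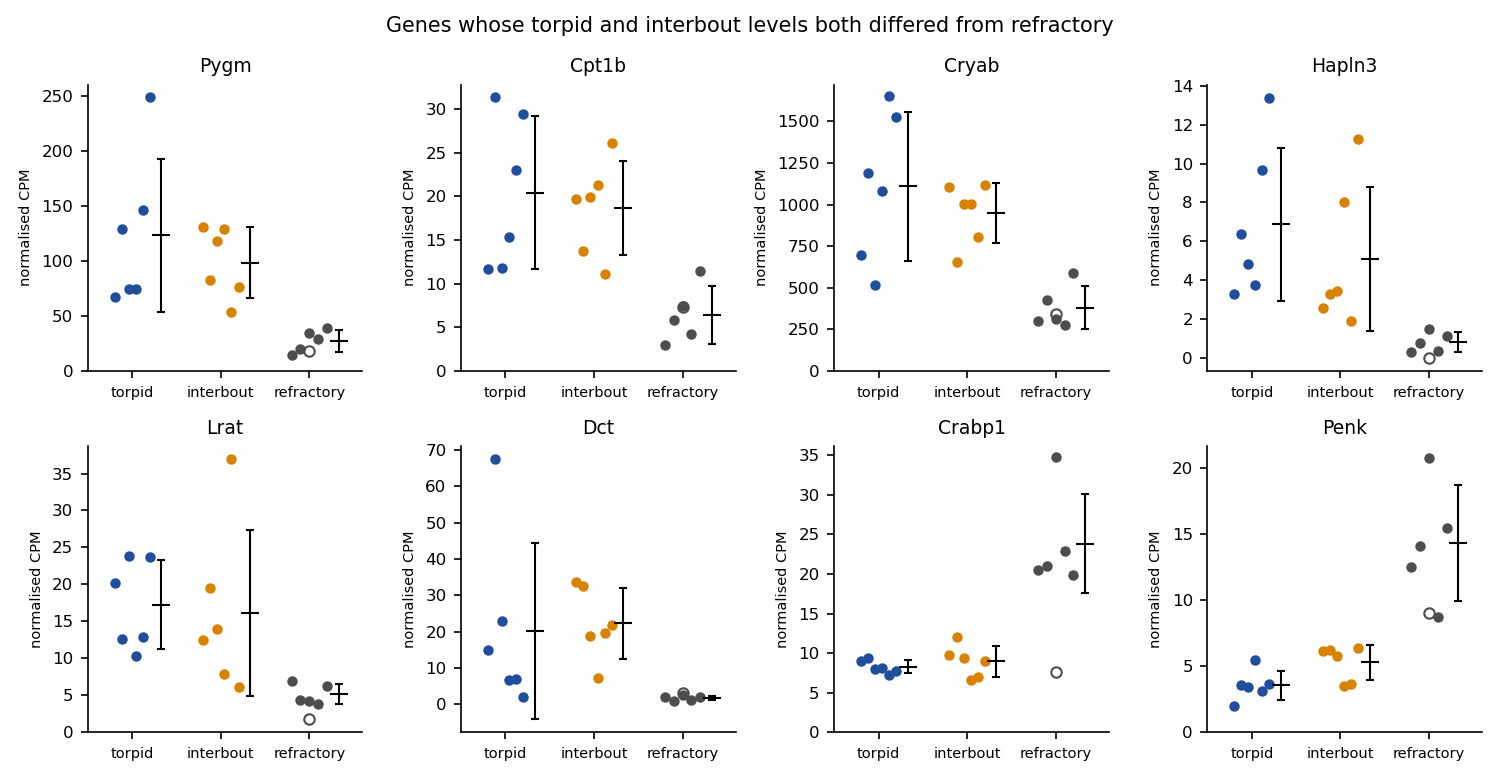
Normalised CPM (vertical axis) of 8 genes in each torpid, interbout and refractory library; points are libraries, black bars the mean ± SD (n = 6, 6 and 5) and the open circle refractory 4. The torpid and interbout means lie on the same side of the refractory mean, as for Crabp1 (7.29 to 9.45 CPM torpid, 6.64 to 12.0 CPM interbout, 19.9 to 34.7 CPM refractory), with wide torpid spreads for Pygm and Dct. Single torpid libraries reach into the refractory range for Cryab and Dct, and single interbout libraries for Cpt1b and Lrat.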

How the data were processed

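RNA from laser-captured tissue was sequenced in paired-end libraries, and the authors counted read pairs per gene with featureCounts 2.0.1 against the BCM_Maur_2.0 annotation without strand, per the file headers. The deposited values are raw counts per gene; the aligner's settings are not stated in the labels. The tables list 32340 genes, of which 31426 had a count in some library. Without strand, overlapping genes share reads, and 15 of the 160 genes named by rule overlap another gene's exons. Besides Kctd21, Lrat and Ankrd37, these include Srsf5, Thrb, Pygl, Nfkbiz and Nfkb1, whose values above carry the same limit. RNA integrity was 7 to 9 per the labels' protocols. Labels name separate animals as replicates.

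Groups were taken from the sample titles. After filterByExpr and TMM scaling, edgeR 4.0.16 (R 4.3.3) fitted a robust quasi-likelihood model to 35 libraries, all but refractory 4, and p values were Benjamini-Hochberg adjusted over the 17996 genes tested. CPM use the TMM-scaled library sizes. The fold changes are edgeR's, with a prior count. The SE beside a log2 fold change is its absolute value divided by the square root of the quasi-likelihood F statistic. It restates that test and is not a separate measure of spread. Summed marker levels were compared with exact permutation tests. Alternatives were fitted with DESeq2 1.42.0 and limma 3.58.1 and are listed in the closing section. On simulated counts for torpid against refractory (17846 genes, 200 changed) the fit recovered 81% of genes changed 2-fold and 99% of those changed 4-fold, and 4.26% of its calls were false. The changed genes were picked only among those with a mean of at least 1 CPM, so recovery of lower genes was not measured. Those counts were drawn from the spreads of the fit itself, with changes in torpid libraries only and no admixture of other tissue. The 4.26% is therefore not an error rate of the calls in the real data.

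The comparison, the naming rule and the 52 gene lists were chosen with earlier results of these data known. The rule takes the 10 largest rises and falls and the 6 rises and 6 falls with the smallest p at a mean log2 CPM of at least 1, up to 4 members of each list with at least 2 members that passed, and a fixed set of genes. Other genes were named after their values were seen. No table of promoter, protein or genome sequence of the annotation was used here, so no sequences are shown.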

Additional observations from a re-analysis of the deposited data

Results flagged for a closer look

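Single libraries that lay far from the others of their group were looked for with Dixon's test in 326 groups of 5 or 6 values, over the genes and summaries named by rule, and 31 groups (9.51%) had one, where chance alone gives about 1 in 20. Refractory 4 was far from the other refractory libraries in its shares of ribosomal RNA (41.8% of counts) and mitochondrial transcripts (18.3%), and torpid 4 had the highest mitochondrial share of the torpid libraries (3.18%).

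Torpid 6 was the highest torpid library for Tsc22d3 (473 CPM), Rgs2 (38.1 CPM), Nr4a1 (18.8 CPM), Hif3a (15.03 CPM) and Atg101 (54.3 CPM) and the lowest for Ankrd37 (5.45 CPM). Torpid 2 was the highest for Dct (67.6 CPM), Egr1 (17.9 CPM) and Slc2a4 (33.9 CPM). Torpid 4 was the highest for Spred1 (21.4 CPM) and Hes5 (27.04 CPM) and the lowest for Atg9a (51.9 CPM) and Tshr (58.8 CPM). Torpid 5 was the highest for Cnot6 (13.6 CPM) and Hmox1 (88.1 CPM), torpid 3 for Pomc (148 CPM) and torpid 1 for Zfp36 (86.3 CPM).

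Refractory 3, the library with the most pituitary transcripts, was the highest refractory library for Kiss1 (10.1 CPM), Crabp1 (34.7 CPM) and Tcerg1l (6.35 CPM). Refractory 1 was the highest for Tbpl1 (33.4 CPM) and Rbm3 (278 CPM) and the lowest for Pfkm (163 CPM) and Hmox1 (39.5 CPM). Refractory 2 was the highest for Cdk6 (39.3 CPM) and refractory 6 for Dnajb5 (13.7 CPM), while refractory 5 was the lowest for Cry1 (16.1 CPM) and Angptl4 (3.39 CPM).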

How the results depend on the processing

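The 1918 genes that passed between torpid and refractory animals (874 rises, 1044 falls) became 3167 with limma voom and quality weights (1473 and 1694), 3068 without the 3 libraries rich in ribosomal RNA, refractory 4, pre-hibernation 5 and interbout 6 (1466 and 1602), and 865 without refractory 2, 3 and 4 (408 and 457), an alternative chosen after seeing the data. With refractory 4 the falls numbered 1625. Leaving out 1 library at a time gave 1344 to 2189 genes, 578 to 1059 rises and 766 to 1130 falls, and without refractory 2 the rises numbered 578. DESeq2 gave 2390, RLE size factors 1931, a minimum of 1 CPM in 5 libraries 1968, no low-count filter 1450, a fit of the compared groups alone 1959, neuron and oligodendrocyte covariates 1796, and removal of ribosomal RNA and mitochondrial genes 1891. Between interbout and refractory animals the 229 genes became 628 with refractory 4, 631 with DESeq2, 1116 with limma voom, 124 without the filter, 84 with the compared groups alone, 540 without the libraries rich in ribosomal RNA, 47 without refractory 2, 3 and 4, 99 with covariates, and 58 to 344 with 1 library left out; the counts were 145, 96 and 107 without interbout 2, 3 and 4 and 66, 58, 344 and 61 without refractory 1, 2, 3 and 5. Between torpid and interbout animals the 1322 genes became 728 with refractory 4, 718 with the compared groups alone and 1026 to 1363 with 1 library left out. The cause of these shifts was not tested. Of the 148 named genes that passed, the call was lost by 14 with refractory 4, 44 without refractory 2, 3 and 4, 22 with covariates, 15 with the compared groups alone, 9 without the filter, 5 with limma voom and 0 with DESeq2.

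Animals of the 2 groups share replicate numbers, but the deviations of same-numbered torpid and refractory libraries from their group means correlated at 0.167, -0.182, 0.0870, -0.0790 and 0.0800, and 0 of the 5 torpid libraries correlated best with its own number. These correlations show no pairing of torpid with refractory animals by number, but they cannot exclude a shared factor. The labels do not state a pairing. With the replicate block 1806 genes passed (842 rises, 964 falls), 284 between interbout and refractory animals and 1143 between torpid and interbout animals.

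Over all 1918 genes that passed, 14 had the other sign with refractory 4 and 2 without refractory 2, 3 and 4. Among the named values, signs turned only where the test had not passed. The log2 fold change was -0.0853 for Tshr with covariates and -0.0297 for Per2 with refractory 4. It was -0.0205 with limma voom and -0.1185 with covariates for Hspa8, which ran from -0.0578 to 0.0728 with 1 library left out. For Slc2a1 it was -0.0400 with covariates and ran from -0.0143 to 0.0940 with 1 library left out. For Inhba it was -0.1949 with limma voom, -0.2051 with covariates, and -0.1895 to 0.3804 with 1 library left out. The summed difference of torpid minus refractory animals ran from -41.7 to 434.6 CPM for tanycyte markers, -5.18 to 0.288 CPM for mural cell markers and -18.2 to 0.0351 CPM for choroid plexus markers with 1 library left out, and was 0.576 CPM for oligodendrocyte precursor markers without refractory 2, 3 and 4 and 17.4 CPM for endothelial markers with refractory 4.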
